A study of Homo sapiens with 7 samples.

Results

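KM-H2 is an established cell line derived from Hodgkin lymphoma (HL). Its expression profile was set against those of 6 other HL cell lines, namely U-HO1, L-540, HDLM-2, L-428, SUP-HD1 and L-1236. KM-H2 is thus 1 of the 7 samples of the series. Total RNA of each line was extracted with Trizol, labelled with biotin and hybridised to a single Affymetrix array of the type HG U133 Plus 2.0. The labels give neither a treatment nor a time point, and the study's methods state that the German cell bank DSMZ holds all of these lines. There was 1 array per line and no replicate, so no difference below carries a test, and each value describes these arrays rather than a spread between cultures.

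HL is a B-cell malignancy whose tumour cells, the Hodgkin/Reed-Sternberg cells, have lost most of the B-cell gene program. These cells live on constitutive NFkB and JAK-STAT signalling, secrete chemokines and cytokines, and carry ligands by which they attract and restrain T-cells. They also express developmental regulators such as homeobox genes that are foreign to mature B-cells. Cell lines from different patients share parts of this picture and differ in others, which is what the comparison of KM-H2 with the other lines describes.

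Levels are log2 values after robust multi-array averaging (RMA), so that a difference of 1 is a doubling. Where several probe sets measure a gene, the one with the highest average level was read, which gave 19775 genes. For each gene the KM-H2 level minus the mean of the other 6 lines is called the difference, and the distance from KM-H2 to the nearest of the other lines on the same side is called the gap. A gene was called higher or lower at a difference of at least 1 and a level above background in at least 1 line. It was called above or below all other lines at a gap of at least 1, with KM-H2, or all 6 other lines, above background. Background is set on each array by 107 probe sets for olfactory receptors, of which 95% lie under it. Probe sets of the same gene differed from each other in the KM-H2 difference with an SD of 0.62 (20474 probe sets of 7283 genes), called the technical spread below. It measures disagreement between probe sets, not error between arrays or cultures, for which these data hold no measure. It serves only as a rough yardstick, and a gap larger than it is not thereby shown to be reproducible.

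The background of the KM-H2 array was 4.84, against 4.49 in SUP-HD1 to 5.59 in L-1236, and 10694 genes lay above it. Array medians ran from 4.29 to 4.46. L-1236 stood apart by its high background, with 8609 genes above it, and U-HO1 by the signal of its 18S rRNA control probe sets, 11.12 against 5.23 to 7.06 in the others, and by a difference of 2.11 between the 3' and 5' ACTB control probe sets, against 0.06 to 0.54. Over all genes KM-H2 correlated best with L-428 (Pearson's r = 0.87) and least with L-1236 (r = 0.81), a description in which the 2 arrays share the same probe sets. The methods name 2 laboratories that made the arrays without assigning the lines, so laboratory and line cannot be told apart. In such bulk RNA, fewer expressing cells and less RNA per cell cannot be told apart.

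KM-H2 lay above all 6 other lines at 443 genes (2.24% of all genes read) and below all of them at 117 genes (0.592%). Against the mean of the others it was higher at 1864 genes (9.43%) and lower at 1623 (8.21%), and the median difference of all genes read was -0.07. These shares are the scale for every list count below, and a list near them differs no more than genes at large. The number of genes above all others was the third largest of the 7 lines, which ran from 219 in L-428 to 516 in L-1236. At a gap of at least 4 there were 41 genes above and 11 below, and at a gap of at least 6 there were 8 above and 2 below. In all, 256 genes were above background in KM-H2 alone, fewer than in SUP-HD1 (315), L-540 (312) and U-HO1 (303), and 158 were below background in KM-H2 alone, against 63 to 1361 in the other lines. With the arrays of L-1236 and U-HO1 left out together, KM-H2 lay above the remaining lines at 644 genes and below them at 331.

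**Figure D1:**
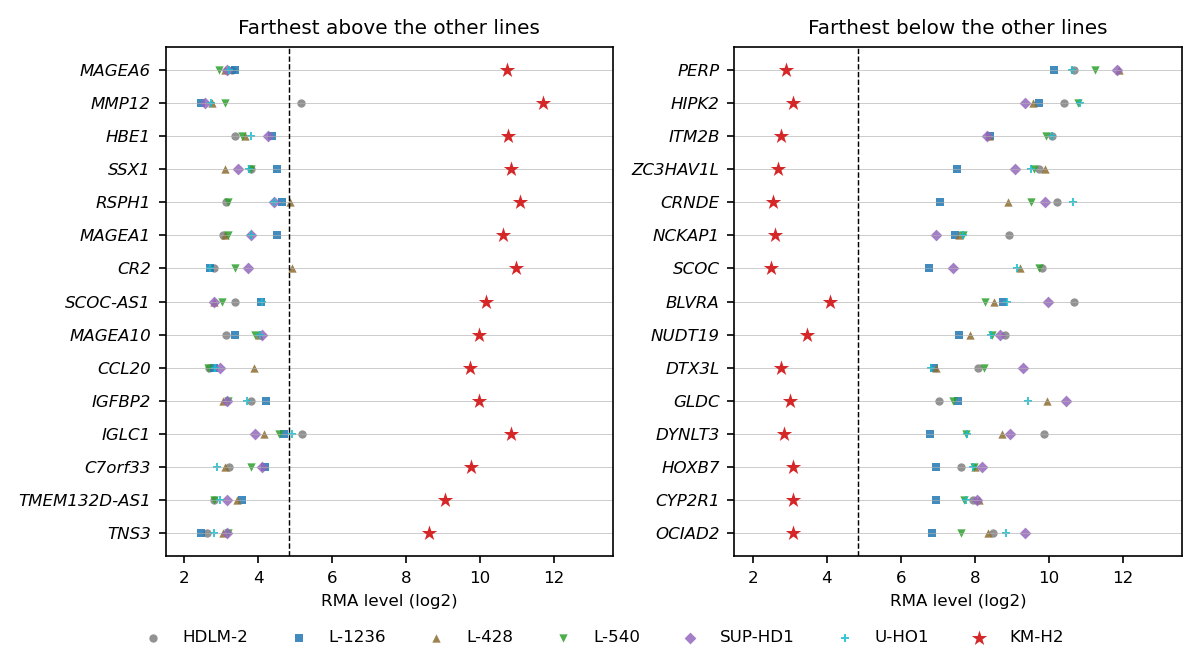
The 15 genes with the largest gap above (left) and below (right) the other lines. The x axes give the RMA level (log2), each symbol is the single array of 1 line, the star is KM-H2 and the dashed line is the KM-H2 background at 4.84. On the left KM-H2 sits between 8.61 and 11.70 while the others lie near or under background, and on the right KM-H2 sits between 2.48 and 4.08 while the others lie between 6.76 and 11.90.

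Among the lists of related genes, the cancer-testis antigens had the most members above all other lines. These genes are normally transcribed in germ cells of the testis, many of them lie in families on the X chromosome, and their promoters are kept silent in other tissues by methylation of CG dinucleotides. Of 32 measured members, 14 were higher in KM-H2, 2 were lower and 11 lay above all 6 other lines, whereas in any other line against its own 6 at most 7 members were higher and at most 1 lay above all others. The bases upstream of 3 of these genes are shown, because methylation of such CG dinucleotides, printed in capitals, is the known switch of the family. The sequences are from RefSeq (GRCh38.p14), read 5′ to 3′ on the strand of the gene over the 250 bases before its start, at chrX:152769690-152769939 (minus strand) for MAGEA6, chrX:30215313-30215562 (plus strand) for MAGEB2 and chrX:141903644-141903893 (plus strand) for MAGEC1.
MAGEA6: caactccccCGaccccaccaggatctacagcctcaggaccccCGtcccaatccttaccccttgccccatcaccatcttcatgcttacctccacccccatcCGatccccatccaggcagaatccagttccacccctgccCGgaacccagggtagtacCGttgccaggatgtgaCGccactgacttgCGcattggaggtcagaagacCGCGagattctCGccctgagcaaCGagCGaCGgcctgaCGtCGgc
MAGEB2: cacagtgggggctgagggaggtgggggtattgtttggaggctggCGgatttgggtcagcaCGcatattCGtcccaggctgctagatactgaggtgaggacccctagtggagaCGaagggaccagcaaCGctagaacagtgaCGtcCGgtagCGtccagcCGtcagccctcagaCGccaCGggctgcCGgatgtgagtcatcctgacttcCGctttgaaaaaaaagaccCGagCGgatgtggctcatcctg
MAGEC1: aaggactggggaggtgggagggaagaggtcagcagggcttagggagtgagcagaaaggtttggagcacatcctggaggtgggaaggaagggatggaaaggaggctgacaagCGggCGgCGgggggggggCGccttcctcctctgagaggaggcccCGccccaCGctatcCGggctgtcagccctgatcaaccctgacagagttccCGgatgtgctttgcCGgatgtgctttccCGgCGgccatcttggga
They held 15, 15 and 11 CG dinucleotides, against a median of 11 over the 35116 promoter windows of the same length (quartiles 3 and 23). Methylation was not measured in these samples.

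MAGEA6 was at 10.73 in KM-H2, while the other lines ran from 2.95 in L-540 over a median of 3.18 to 3.38 in L-1236, a gap of 7.35. This was the largest gap of all genes. MAGEA1 was at 10.63 against at most 4.51, MAGEA10 at 9.97 against at most 4.10, and MAGEC1 at 8.70 against at most 3.85. None of the other lines reached background at these 4 genes. The families overlap in sequence, and 1 probe set of such a family can also read its near-identical relatives, so the assignment to a single MAGEA member is uncertain.

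The SSX genes, transcriptional repressors of the same antigen class, were also high. SSX1 was at 10.85 in KM-H2 against 3.12 to 4.51 in the others (median 3.79), and SSX3 at 9.31 against 4.15 to 5.85 (median 4.28). CTAG2, a relative of the antigen NY-ESO-1, was at 9.23 against 4.21 to 4.65. PIWIL1, which guards the germline against transposons, was at 6.92 against 2.61 to 3.03. At the probe sets read, all 4 genes were separated from every other line by more than 3 on the log2 scale. A second CTAG2 probe set had KM-H2 at 6.99 and L-1236 at 5.36, a gap of 1.63. The probe sets read for SSX1, SSX3 and CTAG2 can also read related genes, so these are not independent readings of single genes.

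Other members were shared with some lines. MAGEA4 reached 11.41 in KM-H2 and 10.74 in U-HO1, and no other line exceeded 3.38. MAGEB2 was at 10.70 in KM-H2, at 9.11 in L-1236, 9.48 in L-428 and 9.25 in U-HO1, and at 2.65 to 3.11 in HDLM-2, L-540 and SUP-HD1. MAGEB1, its neighbour on the X chromosome, was at 10.20 in KM-H2, with 8.96 in U-HO1 and 8.86 in L-428 as the next lines. PRAME was at 10.29 in KM-H2 and at 10.42 in SUP-HD1, so that these 2 lines differed by less than the technical spread. Of the 32 members 15 were below background in all 7 lines. Over all 32 members the median difference was 0.41, and over the 17 members above background somewhere it was 4.72, a value that is raised by the members that passed this filter through KM-H2 alone. TKTL1, counted with this list, was instead high in U-HO1 (12.22) and at 3.63 in KM-H2.

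**Figure D2:**
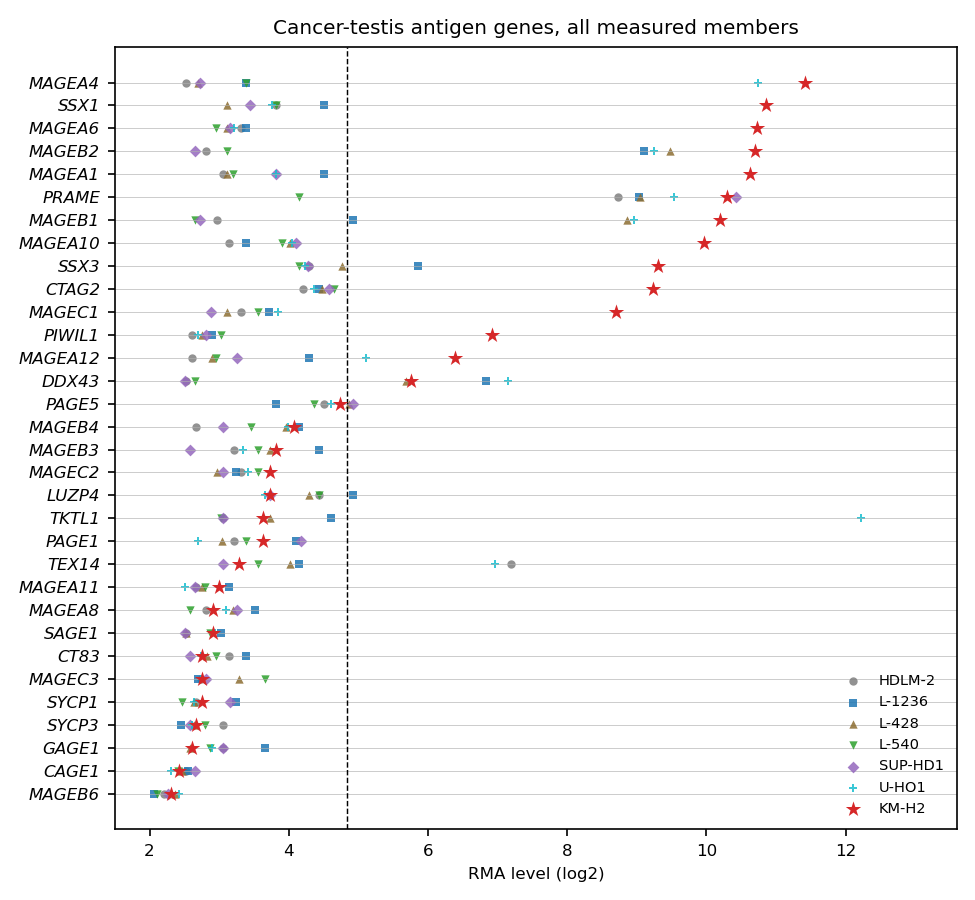
RMA levels (log2, x axis) of all 32 measured cancer-testis antigen genes, ordered by their level in KM-H2 (star), with the other 6 lines as symbols and the KM-H2 background at 4.84 as a dashed line. The 14 genes in the upper rows from MAGEA4 (11.41) to DDX43 (5.75) are above background in KM-H2, and the other 18 are below it.

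Some other genes with a large gap are not known for a role in lymphocytes. HBE1, the embryonic beta-like globin, was at 10.76 against 3.39 to 4.37 in the other lines (median 3.73), at 1 of its 2 probe sets, the second lying below background in all lines. Its neighbour in the gene order, OR51B4, was at 6.80 against at most 4.4. In contrast HBB, the adult globin, was at 4.80 in KM-H2, within the range of 4.10 to 5.43 of the others. RSPH1, a radial spoke protein of cilia, was at 11.08 against 3.14 to 4.86, and ADAD1, an RNA-binding protein of the testis, at 8.68 against 2.97 to 4.51. IGFBP2, a binding protein of insulin-like growth factors, was at 9.97 against 3.04 to 4.22. No other line came within 4 of KM-H2 at RSPH1, ADAD1 or IGFBP2.

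Genes of B-cell identity were split. Of 34 measured B-cell genes 7 were higher in KM-H2, 6 were lower and 1 lay above all others, and the median difference was 0.18. CR2, the complement receptor of mature B-cells, was at 10.98 in KM-H2, while the other lines ran from 2.70 in L-1236 over a median of 3.09 to 4.92 in L-428. The second CR2 probe set also had KM-H2 highest, but at 3.91, below background. CD24 was at 8.53 against 2.83 to 8.07, so that L-428 came within 0.46. BLNK, the adaptor of the B-cell receptor, was at 6.91 against 2.65 to 6.02. BCL11A, a factor of early B-cell development, was at 9.44 against 2.41 to 9.70. It was low in HDLM-2 (3.21) and L-540 (2.41) and at 7.33 to 9.70 in the remaining lines. Part of its mean difference thus rests on HDLM-2 and L-540. KM-H2 was thus the highest line for CR2, CD24 and BLNK but second to U-HO1 for BCL11A.

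TCL1A, a cofactor of AKT present in naive B-cells, lay outside this list. It was at 9.18 in KM-H2 and at 3.42 to 4.65 in the other lines (median 3.77). IGLC1, the immunoglobulin lambda constant region, was at 10.85 against 3.92 to 5.2, although 7 of its 9 probe sets lacked such a gap and its sequence is shared with other lambda genes. IGLV1-44, a lambda variable gene next to it, was at 8.32 against 4.10 to 5.71. IGHM, the mu heavy chain, was at 6.19 against 5.2 to 6.01, a distance of 0.18 that is smaller than the technical spread. IGKC, the kappa light chain, was at 7.14 within the range of 4.48 to 8.01. Of the immunoglobulin genes named here, those of the lambda chain alone stood far from the other lines.

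Of the transcription factors in the B-cell list, BCL11A and SPIB were higher, PAX5, POU2AF1 and IKZF1 were lower, and the rest differed by less than 1. PAX5, the master regulator of B-cells, was at 4.86 in KM-H2, next to the background of 4.84, while the others ran from 4.60 in L-428 to 8.18 in U-HO1. POU2AF1, a coactivator of octamer factors, was at 3.36 within a range of 2.80 to 9.39. Of 14 genes of immunoglobulins and plasma cells, 5 were lower and 1 was higher, with a median difference of -0.34. XBP1, which drives secretion in plasma cells, was at 6.63 against 7.09 to 9.52, at 1 of its 2 probe sets. PRDM1, the repressor that ends the B-cell program, was at 5.38 against 5.21 to 10.18, and MZB1, a chaperone of plasma cells, at 4.38 against 4.89 to 10.02. KM-H2 was the lowest line for XBP1 and MZB1, but the distance to the next line, 0.46 and 0.51, was within the technical spread.

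Markers of other blood lineages served to check the identity of the line. Of 26 T-cell genes 6 were higher and 5 lower, and 5 lay above all other lines, whereas at most 1 did so in any other line. CD3D, a chain of the T-cell receptor complex, was at 8.89 against 4.27 to 4.84. UBASH3A, a suppressor of T-cell signalling, was at 8.96 against 3.46 to 6.64. Its neighbour in the gene order is RSPH1, described above, and both lay above all other lines. CD4 was at 8.46 against 4.10 to 7.30, and ZAP70, the receptor kinase, at 6.57 against 3.66 to 5.38. LEF1 was at 10.12 against 3.20 to 7.75. CD2 was on the contrary at 2.67 against 3.49 to 8.95, with HDLM-2 (8.95) and L-540 (7.28) as the highest lines. The remaining chains did not follow, since CD3E and CD3G were not among the higher genes, and CD247, CD8A and CD5 were lower. Of 16 genes of NK-cells and cytotoxicity 1 was higher and 4 were lower. The higher one was EOMES, a factor of NK- and T-cells, at 7.28 within a range of 3.42 to 9.02. The effectors PRF1, GZMB and NKG7 were at 4.23, 3.91 and 3.36, all below background. KM-H2 was not alone in this. GZMB and NKG7 were high in L-540 (12.01 and 11.22) and at most 4.75 and 5.52 elsewhere. PRF1 was high in L-540 (11.34) and HDLM-2 (11.08) and at 4.01 to 6.19 in the remaining lines. Among 26 myeloid genes 4 (15.4%) were higher, namely ITGAM, FCGR2A, CD14 and CSF1R, and 2 (7.69%) were lower, CEBPA and FCER1A. Up to 5 were higher in other lines. CD14, the co-receptor for bacterial lipopolysaccharide, was at 6.02 against 3.04 to 4.51, and FCGR2A, an Fc receptor, at 7.30 against 3.14 to 6.53. ITGAM was at 8.22 against 3.66 to 7.13 at 1 probe set, while its second one was below background at 3.55. MAF, a factor of T-cells and macrophages, was at 7.64 against 2.80 to 7.52, and MEIS1 of hematopoietic progenitors at 7.84 against 2.61 to 7.15.

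**Figure D3:**
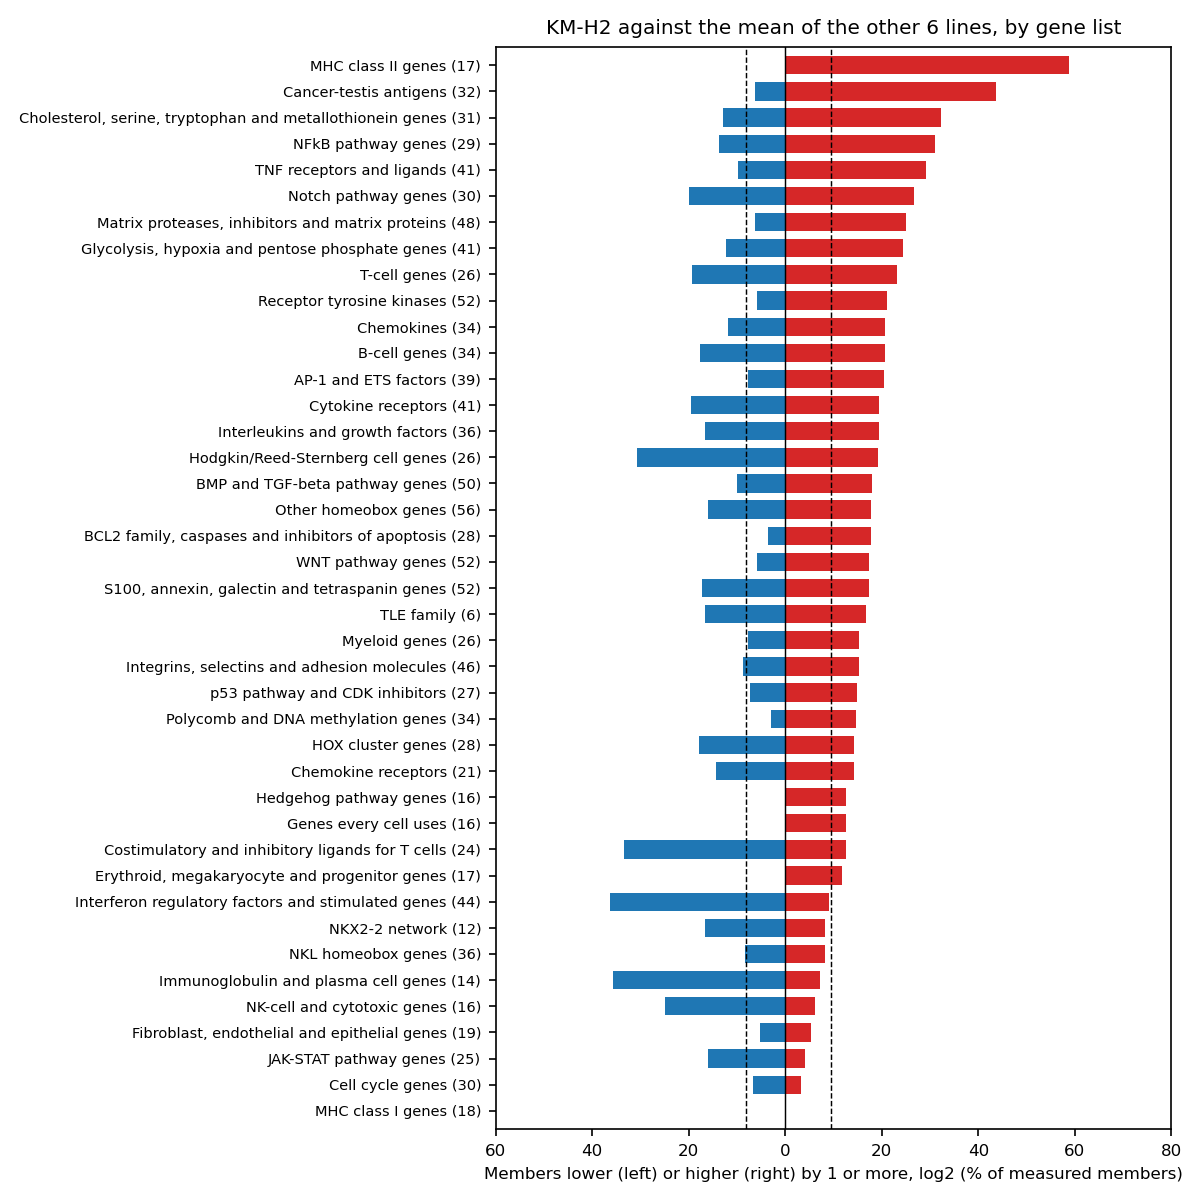
For each of the 41 lists, with the number of measured members in brackets, the share of members that were higher (right, red) or lower (left, blue) in KM-H2 than the mean of the other lines by 1 or more on the log2 scale. The dashed lines mark the shares over all genes read, 9.43% higher and 8.21% lower. MHC class II genes (58.8%) and cancer-testis antigens (43.8%) reach farthest to the right, and interferon (36.4%) and plasma cell genes (35.7%) farthest to the left.

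Transcripts for antigen presentation by MHC class II, which many HL cells have lost, were often high in KM-H2. Protein and presentation itself were not measured. Of 17 measured genes 10 were higher and none lower, with a median difference of 1.10. KM-H2 was however not alone, since counts of higher members in the other lines against their own 6 reached 12. CIITA, the transactivator that switches the class II genes on, was at 7.37 in KM-H2, at 4.11 in L-1236, 4.58 in L-540, 5.21 in SUP-HD1, 5.52 in L-428, 5.74 in HDLM-2 and 6.25 in U-HO1. This gap of 1.12 was seen at 1 of 3 probe sets, the other ones lying below the KM-H2 background at 4.46 and 4.60. TVP23A, the neighbour of CIITA in the gene order, was at 8.59 against 2.87 to 6.45.

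The class II chains themselves were near the top of the range rather than above it. HLA-DRA was at 12.95 in KM-H2, below HDLM-2 at 13.41 and above L-1236 at 7.18, and the median of the other lines was 11.92. HLA-DPB1 was at 12.02 against 5.93 in L-1236 to 12.35 in HDLM-2. HLA-DOB, a modulator of peptide loading, was at 7.52 against 4.01 to 7.11. HLA-DQA1 was at 11.69, close to L-428 at 11.97 and far above the remaining lines, of which L-540 was next at 7.68. A different HLA-DQA1 probe set had KM-H2 at 4.15 and a difference of -2.49, so the level of this gene depends on the probe set. Since L-1236 was the lowest line for CIITA, HLA-DRA and HLA-DPB1, part of each mean difference rests on that array. Of 18 MHC class I genes none was higher or lower by 1.

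NFkB is held in the cytoplasm by inhibitors, is released by kinases downstream of TNF receptors, and is switched off again by deubiquitinases and by TRAF3, which promotes degradation of the kinase NIK. Of 29 measured pathway genes 9 were higher, 4 were lower, 1 lay above and 2 below all other lines. An inhibitor and an adaptor of the pathway stood at the low end. CYLD, the deubiquitinase that restrains NFkB, was at 5.38 in KM-H2 against 7.65 in L-1236, 7.68 in U-HO1, 8.49 in L-428, 8.71 in SUP-HD1 and 9.04 in both HDLM-2 and L-540, a gap of 2.27. All 7 CYLD probe sets had a negative difference, of which this one was the largest and the only one with a gap of at least 1. TRAF5, an adaptor of TNF receptors, was at 2.91 against 5.41 to 8.41 (median 7.58), with a second probe set below background in all lines. TRAF3 was at 9.12 against 2.87 in U-HO1 to 7.83 in L-540, a gap of 1.29 that both of its probe sets showed.

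Of the 5 NFkB subunits, named here after their values were seen, 4 were higher. NFKB1 was at 9.45 against 7.69 to 8.77, NFKB2 at 9.19 against 6.75 to 8.60, and RELB at 7.62 against 5.05 to 6.73. KM-H2 was the highest line at these 3 genes, with gaps of 0.68, 0.59 and 0.89, of which that of NFKB2 was within the technical spread. REL was at 9.70 within a range of 6.23 to 10.60, and RELA, the fifth subunit, was at 7.43 within 6.41 to 8.14. BIRC2, an inhibitor of apoptosis that acts in this pathway, was at 9.99, next to U-HO1 at 10.06, while SUP-HD1 stood at 2.58.

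The following genes, known as NFkB targets, were picked for a high level in KM-H2 and do not stand for NFkB targets as a group. CCL20, which attracts cells bearing CCR6, was at 9.72 in KM-H2 against 2.65 to 3.90 in the others (median 2.82). BCL2A1, a survival factor of the BCL2 family, was at 11.24 against 4.65 in L-540 to 9.59 in L-428. ICAM1, an adhesion molecule, was at 10.13 against 7.40 to 9.07. GADD45B, a stress protein, was at 8.25 against 4.81 to 7.20. EBI3 and IL12B, subunits of cytokines of the IL12 family, were at 11.38 against 4.93 to 9.48 and at 6.69 against 2.41 to 2.80. TNF itself was at 8.10 against 3.82 to 7.52. KM-H2 was the highest line at all 7 of these genes, and the distance for TNF, 0.58, was within the technical spread. VCAM1 was at 7.94, below HDLM-2 at 8.29. Other known targets were low, such as CCL17 and CD274, which are described with their groups, and CCL22, at 5.03 within a range of 4.65 to 7.96.

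Of 41 measured receptors and ligands of the TNF system 12 were higher and 4 were lower, while at most 9 were higher in any other line. TNFSF15, a T-cell costimulator of the TNF family, was at 6.34 in KM-H2 against 3.03 to 3.58. TNFSF13B, the B-cell survival factor BAFF, was at 7.96 against 4.10 to 6.83. TNFRSF1A, the main TNF receptor, was at 5.75 against 3.63 to 4.71. TNFRSF4 was at 7.01 against 3.73 to 5.33 at 1 probe set, its second being below background in all lines. TNFRSF11A, the receptor RANK, was instead at 6.67 against 7.89 to 9.81, the 1 member below all other lines.

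Cytokines signal through JAK kinases and STAT factors, and the SOCS genes and CISH are targets of STATs that feed back on the receptors. Of 25 measured genes 1 was higher and 4 were lower, while in the other lines 2 to 11 were higher. The median difference was nevertheless 0.30, and 6 of the 25 had their highest level in KM-H2, against 1 to 9 in each other line. CISH was at 5.64 in KM-H2, 6.91 in U-HO1, 8.09 in SUP-HD1, 8.92 in L-1236, 8.99 in L-428, 10.37 in L-540 and 10.86 in HDLM-2. KM-H2 was below all other lines by 1.27, and all 3 CISH probe sets showed such a gap. SOCS3 was at 4.38, below background, against 5.11 in L-1236 to 10.63 in L-540 (median 8.88). JAK2 was at 6.13 against 4.91 to 9.44. SOCS2 was the exception, at 10.55 against 5.09 in L-1236 to 10.09 in HDLM-2.

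**Figure D4:**
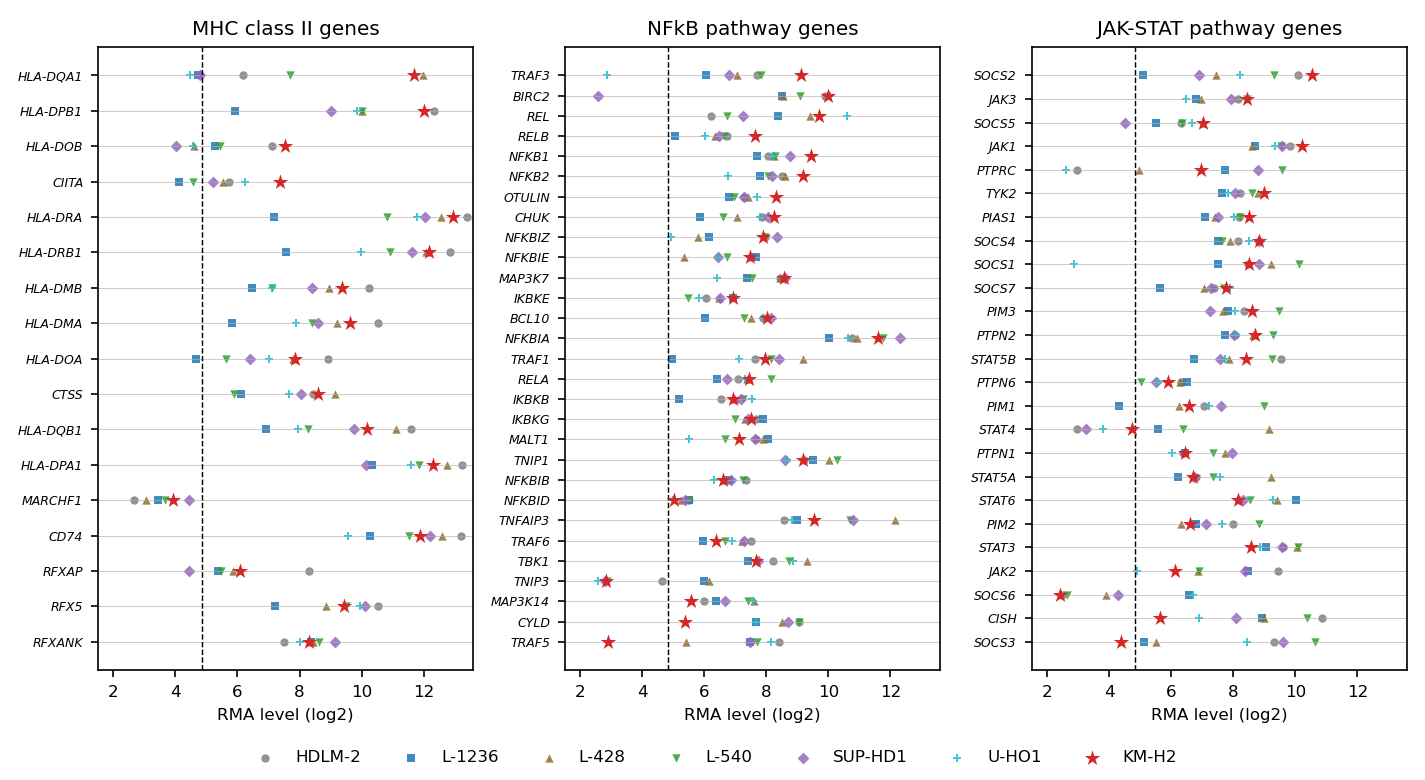
RMA levels (log2, x axes) of all measured members of the MHC class II, NFkB and JAK-STAT lists, ordered from the largest positive to the largest negative difference. Stars are KM-H2, symbols are the other lines and dashed lines mark the KM-H2 background at 4.84. KM-H2 stands at the left end for TRAF5 (2.91), CYLD (5.38), CISH (5.64) and SOCS3 (4.38), and at the right end for TRAF3 (9.12) and CIITA (7.37).

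Cytokines and their receptors differed in both directions. Of 36 interleukins and growth factors 7 were higher and 6 lower, and of 41 cytokine receptors 8 were higher and 8 lower. IL13, an autocrine growth factor in HL, was at 4.31, below background, against 4.37 in U-HO1 to 8.94 in SUP-HD1. IL26 was at 2.91, as low as L-1236, L-428 and U-HO1, against 8.37 to 10.70 in the other three. CCL17, the chemokine TARC that attracts Th2 cells, was at 7.34 against 6.64 to 13.07, so that KM-H2 was the third lowest line. The receptor gene IL3RA was at 4.38 against 5.89 to 9.31 and lay below all others, whereas CSF2RB, the beta chain that IL3RA pairs with, was the highest of all lines at 8.45 against 2.82 to 8.0. IL18RAP, a receptor chain for IL18, was at 7.91 against 3.43 to 4.65. IL21, a cytokine of follicular helper T-cells, was at 6.59 against 2.73 to 3.58, next to its neighbour ADAD1 described above.

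The ligands for T-cells differed in both directions. Of 24 measured genes 8 were lower and 3 higher. CD86, the costimulator that binds CD28 and CTLA4, was at 6.69 in KM-H2, while the other lines ran from 8.91 in L-1236 over a median of 9.57 to 10.54 in HDLM-2. This gap of 2.22 was also found at a second of its 3 probe sets. CD274, the checkpoint ligand PD-L1, was at 6.04, within the range of 5.79 in U-HO1 to 11.52 in SUP-HD1, and PDCD1LG2, or PD-L2, was at 4.46 within 3.99 to 9.33. LGALS3, galectin-3, was at 3.36, as low as U-HO1 at 3.28, while the other lines reached 12.11. CD48, a ligand of CD2, was at 10.30, second to L-540 at 10.85.

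Among the chemokines 7 of 34 were higher and 4 were lower. CXCL11 was at 7.62 in KM-H2 against 2.41 to 4.61, at both of its probe sets, and CXCL10 at 10.01 within a range of 3.82 to 11.55. Both bind the receptor CXCR3 of activated T-cells. CCL5 was at 12.08 against 6.40 in HDLM-2 to 11.57 in L-428. ACKR3, a scavenging receptor that binds CXCL11 and CXCL12, was at 7.85 against 2.58 to 2.97, at 1 of its 3 probe sets. CXCR4, the signalling receptor for CXCL12, was high in all lines, with 11.36 in KM-H2 and 8.95 to 11.07 in the others.

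Interferon-stimulated genes were more often lower than higher. Of 44 measured genes 16 were lower and 4 were higher, and in the other lines 1 to 18 were lower. MX1, an antiviral GTPase, was at 3.63, the same as SUP-HD1, against up to 8.84 in U-HO1. IFI44 was at 2.55 against 3.06 to 7.22, but only HDLM-2 (7.22) was above background there. SAMHD1, which depletes nucleotides, was at 6.02 against 7.09 to 8.76, a gap of 1.07. IRF8, a factor of B-cells and myeloid cells, was at 4.67 within 4.46 to 10.03. TRIM22 went the other way at 8.33 against 2.76 to 7.64.

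DTX3L and PARP9 lay outside this list. Their products form a complex of a ubiquitin ligase and an ADP-ribosyltransferase that is known to act in DNA repair and the interferon response. DTX3L was at 2.76 in KM-H2 and at 6.82 in U-HO1, 6.90 in L-1236, 6.96 in L-428, 8.08 in HDLM-2, 8.24 in L-540 and 9.29 in SUP-HD1. PARP9 was at 3.0 against 6.04 in L-1236 to 8.99 in SUP-HD1 (median 6.77). At the second PARP9 probe set KM-H2 was at 3.82, below background, but L-1236 was lower at 3.55, and the difference was -1.26. At the probe sets read, both were below background in KM-H2 and above it in all other lines. They are transcribed away from each other from starts 38 bases apart in the RefSeq annotation. The bases from the PARP9 start to shortly beyond that of DTX3L, on the plus strand at chr3:122564301-122564347 (GRCh38.p14), are shown because they bear on both genes, with a match to the interferon-stimulated response element in capitals.
PARP9 to DTX3L: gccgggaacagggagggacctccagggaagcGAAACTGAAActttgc
This motif was searched on both strands as GAAA, 2 bases of any kind and GAAA, and is held by 3.57% of the 35116 promoter windows of 300 bases. A match is a description and says nothing about binding in these lines.

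The genes with the largest losses were of varied function. PERP, a membrane protein of desmosomes and a p53 target, was at 2.91 in KM-H2, while the other lines ran from 10.14 in L-1236 over a median of 10.97 to 11.90 in L-428. A second of the 5 PERP probe sets showed the same with 2.26 in KM-H2 and a gap of 6.54. HIPK2, a nuclear kinase that phosphorylates p53, was at 3.08 against 9.35 to 10.84, and all 10 of its probe sets had a negative difference, 8 of them with a gap of at least 1. ITM2B, a transmembrane protein, was at 2.76 against 8.34 to 10.09 at the probe set shown, and its second probe set lay below all lines too. ZC3HAV1L was at 2.67 against 7.52 to 9.90, and CRNDE, a long noncoding RNA, at 2.55 against 7.06 to 10.66. All 5 genes were below background in KM-H2 and above it in each of the other lines.

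Further low genes had roles in metabolism, the cytoskeleton and growth control. GLDC, which cleaves glycine, was at 3.0 against 7.02 to 10.46, and PLIN2, a coat protein of lipid droplets, at 3.0 against 6.22 to 10.76. BLVRA, biliverdin reductase, was at 4.08 against 8.27 to 10.68, CYP2R1, a vitamin D hydroxylase, at 3.08 against 6.95 to 8.10, and NCKAP1, a subunit of the actin-regulating WAVE complex, at 2.61 against 6.94 to 8.92. GPHN, gephyrin, was at 3.28 against 6.75 to 7.72 and lay below all others at each of its 3 probe sets. CDKN2A, the inhibitor of cyclin-dependent kinases, was at 4.15 in KM-H2, 4.71 in L-540 and 7.69 to 11.22 in the other lines, so that KM-H2 shared its low level with L-540. EPHB1, an ephrin receptor, was likewise low in KM-H2 (2.76) and L-540 (2.52) and at 7.58 to 10.02 elsewhere. S100A6, a calcium-binding protein, was at 3.73, as in L-1236 (3.82) and SUP-HD1 (3.92), against 9.57 to 11.48 in the other three.

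SCOC, a coiled-coil protein of the Golgi, and its antisense neighbour SCOC-AS1 were opposite to each other. SCOC was at 2.48 in KM-H2 against 6.76 in L-1236, 7.41 in SUP-HD1, 9.14 in U-HO1, 9.22 in L-428, 9.74 in L-540 and 9.81 in HDLM-2. SCOC-AS1 was at 10.15 in KM-H2 against 2.81 to 4.11 in the others, at 1 of its 2 probe sets. KM-H2 was thus the 1 line without SCOC and the 1 line with SCOC-AS1 above background. A start of SCOC and that of SCOC-AS1 lie head to head, 118 bases apart. The bases between them on the plus strand, at chr4:140373393-140373509 (GRCh38.p14), are shown because either transcript starts at 1 of their ends, with CCAAT boxes, here read on the minus strand, in capitals.
SCOC-AS1 to SCOC: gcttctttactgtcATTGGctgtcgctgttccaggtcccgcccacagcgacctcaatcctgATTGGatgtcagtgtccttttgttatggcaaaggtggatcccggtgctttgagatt
CCAAT, searched on both strands, is held by 34.6% of all promoter windows. Further starts of SCOC are annotated upstream and downstream of this one, and the probe sets do not tell the starts apart.

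Homeobox genes are regulators of development whose activity outside their normal tissue is a feature of HL. Of 36 NKL homeobox genes 3 were higher, 3 were lower and 2 lay above all other lines. The shares higher and lower, 8.33% each, were near those of all genes read, 9.43% and 8.21%, so the list did not stand out. EN1, a gene of the midbrain and limb, was at 7.20 in KM-H2 against 2.38 to 2.97. MSX1, which the study places in normal lymphoid and B-cell progenitors and NK-cells, was at 7.52 against 3.11 in L-540 to 5.91 in SUP-HD1. The second MSX1 probe set was below background in all lines, with 4.38 in KM-H2 and 4.60 in L-428. HHEX, which the study places in normal late B-cell development, was at 5.85 against 2.67 to 5.43. DLX4 was at 3.0 against 4.08 to 5.34. NKX2-2, the gene around which the study was built, was below background in all 7 lines, with 2.91 in KM-H2 and 2.67 to 3.03 in the others.

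Outside the NKL group, OTX2 of the forebrain was at 7.27 in KM-H2 against 2.61 to 3.12, and LHX8 at 6.75 against 2.14 to 2.61. These genes and EN1 were above background in KM-H2 alone. In the HOXC cluster HOXC13, the noncoding RNA HOTAIR and HOXC11 were consecutive genes above all other lines, with 5.89 against 3.56 to 4.48, 6.87 against 2.46 to 4.93 and 7.44 against 4.79 to 6.24. HOXC9 and HOXC6 were at 7.75 and 9.70 in KM-H2, and both were surpassed by HDLM-2 at 8.78 and 9.99. HOXB7 was on the contrary at 3.08 against 6.96 to 8.20, at each of its 3 probe sets. Over 28 measured HOX genes 4 (14.3%) were higher, all in the HOXC cluster, and 5 (17.9%) were lower. Among the TLE corepressors, partners of homeodomain proteins, TLE3 lay above all other lines by 1.09 at 1 of its 4 probe sets, while L-540 was higher than KM-H2 at another 2, and TLE4 was below background at 3.46.

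Genes of the extracellular matrix and its proteases were frequently high. Of 48 measured members 12 were higher and 3 were lower, while at most 8 were higher in any other line, and 11 had their highest level in KM-H2. MMP12, the macrophage elastase, was at 11.70 in KM-H2, 5.15 in HDLM-2 and 2.45 to 3.11 in the remaining lines. SPARC, a matrix protein, was at 9.73 against 2.52 to 4.54, and COL4A1, a collagen of basement membranes, at 7.32 against 2.77 to 5.17. MMP9 was at 6.87 against 4.58 to 5.70. PLAT, the tissue plasminogen activator, was shared with L-1236, at 8.99 against 9.55. Further single genes of inflammation and adhesion were found in KM-H2 far above the others, such as ADAMDEC1, a metalloprotease of macrophages, at 8.80 against 2.53 to 3.73, PTX3, a soluble pattern recognition protein, at 7.75 against 2.31 to 2.82, and TNS3, a protein of focal adhesions, at 8.61 against 2.45 to 3.20.

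The list of cholesterol, serine, tryptophan and metallothionein genes held 31 measured members, of which 10 were higher, 4 were lower and 6 lay above all other lines. HMGCS1, which makes the precursor of mevalonate, was at 10.11 in KM-H2 against 5.56 in SUP-HD1 to 8.39 in U-HO1. IDI1, an isomerase further down, was at 11.22 against 8.89 to 10.02, SQLE, the first enzyme of sterol synthesis proper, at 10.96 against 7.62 to 9.75, and INSIG1, the sterol-dependent brake, at 11.95 against 8.56 to 10.42. These 4 genes are known to be regulated together by SREBP2, and each lay above all other lines at 2 or more probe sets. KYNU, kynureninase, was at 8.34 against 4.36 to 7.21, and QPRT, which feeds its product into NAD synthesis, at 7.99 against 3.45 to 6.48. The enzymes that open the pathway were not high, with IDO1 at 3.82 and TDO2 at 2.76 in KM-H2, both below background. EGLN1, an oxygen sensor, was at 10.35 against 8.26 to 9.22, and PFKFB3, a driver of glycolysis, at 5.24 against 6.38 to 7.75.

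Developmental signalling pathways differed at single components. In the WNT list 9 of 52 members (17.3%) were higher, 3 (5.77%) were lower and 3 lay above all other lines. Over all genes read 9.43% were higher and 8.21% lower. WNT5A, a noncanonical ligand, was at 10.85 in KM-H2 and 10.37 in U-HO1, while the other lines ran from 2.97 to 6.75. The receptor FZD10 was at 6.29 against 2.65 to 4.4. The nuclear effectors TCF7L2 and LEF1 were at 8.02 against 3.90 to 6.49 and at 10.12 as given above, and 4 of the 7 TCF7L2 probe sets lay above all other lines. In the Notch pathway 8 of 30 members were higher and 6 were lower. There RBPJ, the DNA-binding effector, was at 11.05 against 7.38 to 9.68, LFNG, which glycosylates the receptors, at 6.19 against 4.51 to 4.98, and the ligand JAG1 at 2.61 within 2.46 to 8.92. In the BMP and TGF-beta pathway, with 9 of 50 members higher and 5 lower, the receptor ACVR2A was at 6.78 against 5.06 to 5.65, and SMAD2, a signal transducer, at 7.68 against 8.77 to 9.86. GDF15 was at 8.07 against 3.73 to 4.97 at 1 of its 3 probe sets. Cell cycle genes gave little, with 1 of 30 higher and 2 lower.

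Neighbouring genes on a chromosome sometimes differed together. In windows of 15 consecutive genes above background in at least 1 line, ordered as in RefSeq, the highest median difference was 1.71, on chromosome 7 from INSIG1 to ESYT2, where 10 of 15 genes were higher and none lower. NOM1 in this window was at 9.44 against 5.53 to 7.59. A window on chromosome 22 from TOP3B to GUSBP11 had a median of 1.64, and it holds IGLC1, IGLV1-44 and PRAME described above as well as ZNF280B, at 8.07 against 2.81 to 6.64. The third, on chromosome 10 from C10orf88 to EDRF1, had a median of 1.63 with 12 of 15 genes higher. CHST15, a sulfotransferase, was there at 10.78 against 3.06 to 8.42, and its neighbours CPXM2 and OAT were above all other lines too. OAT, ornithine aminotransferase, was at 11.62 against 2.73 in SUP-HD1 to 9.46 in L-428.

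Low windows included genes already met. The lowest, on chromosome 3 from CFAP91 to CD86, had a median of -1.40 with 10 of 15 genes lower and 1 higher. EAF2, an elongation factor partner, was at 3.73 against 6.48 to 8.87, and ILDR1, next to CD86, at 3.99 against 5.85 to 8.33. PARP9 and DTX3L lie on the same chromosome, outside this window. A window on chromosome 16 from ITFG1 to CYLD had a median of -1.39 with 9 of 15 genes lower, among them BRD7 of the SWI/SNF complex, at 6.44 against 7.59 to 9.14. The third, on chromosome 3 from CD47 to SLC35A5, had a median of -1.32. CD47, the signal that inhibits macrophages, was at 7.37 against 8.83 to 11.50. Median differences of this size were also met in other lines, whose highest windows ran up to 2.34 in HDLM-2 and whose lowest ran down to -2.23 in L-1236. Copy number was not measured, so its part in these windows was not tested.

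Runs of at least 3 consecutive genes above all other lines occurred 4 times in KM-H2, against 0 to 3 times in the other lines. As in the windows, genes under background in every line were skipped, so genes above background in KM-H2 alone can become consecutive. MAGEA10, MAGEA6 and HOXC13 were such genes, and MAGEA probe sets can also read relatives. The number of runs can thus be raised by the filter. The runs comprised CPXM2, CHST15 and OAT, the HOXC genes with HOTAIR, MAGEA10, MAGEA12 and MAGEA6, and a group on chromosome 14 of PPP4R4, SERPINA6 and SERPINA2. SERPINA6, the cortisol-binding globulin of plasma, was at 7.29 against 3.20 to 4.11. No such run lay below all other lines, but 4 adjacent pairs did, namely PARP9 with DTX3L, ILDR1 with CD86, INPP1 with MFSD6, and AUH with NFIL3. NFIL3, a leucine zipper factor of immune cells, was at 7.17 against 9.13 to 11.05.

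**Figure D5:**
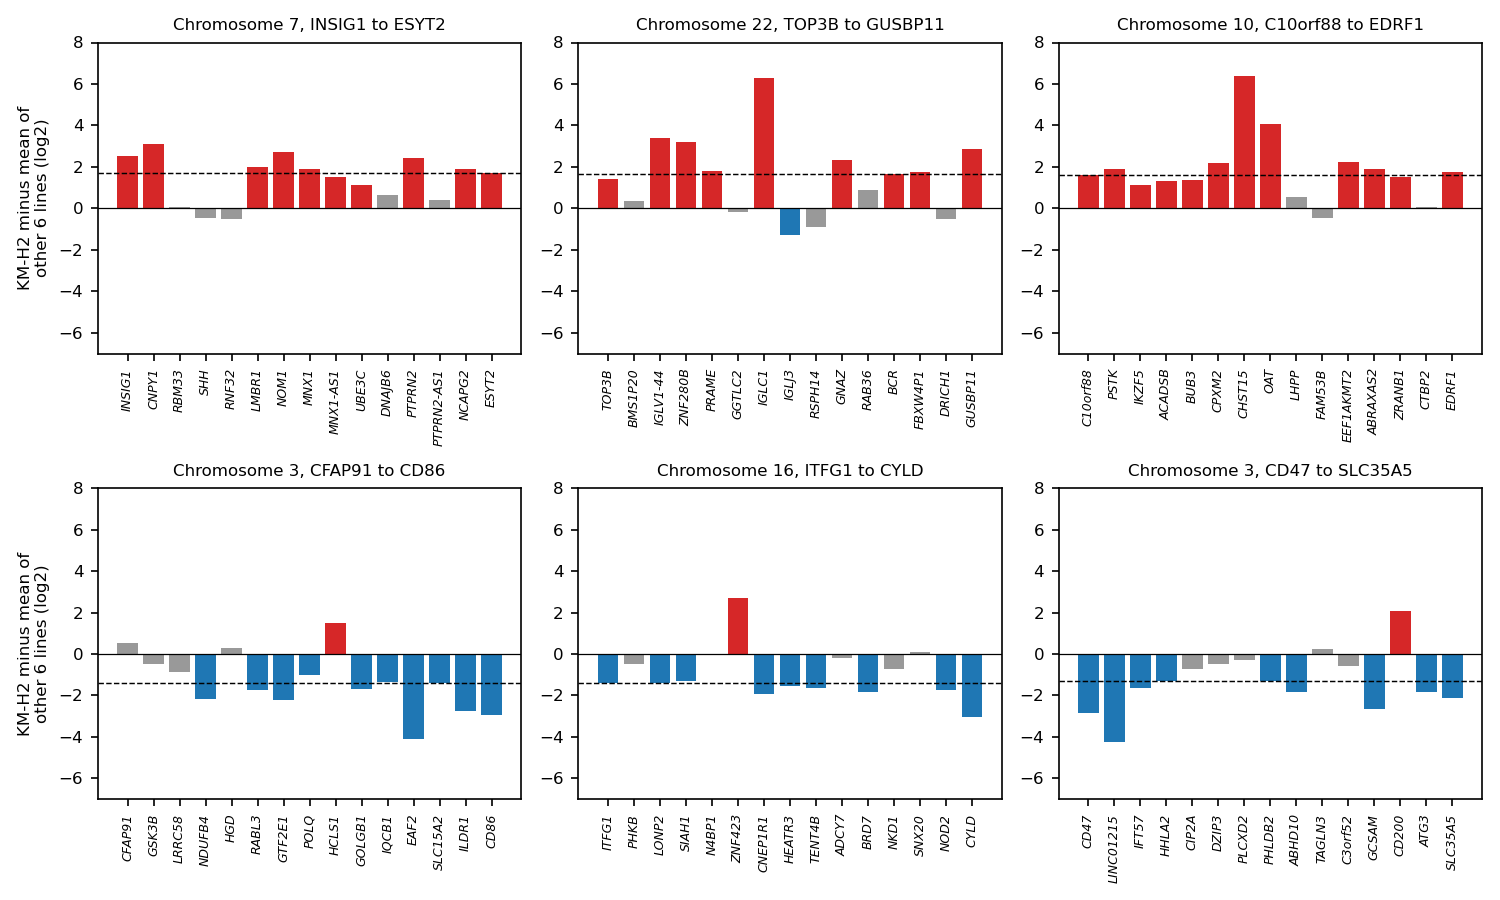
The 3 windows of 15 consecutive genes with the highest (upper row) and lowest (lower row) median difference in KM-H2. Bars give KM-H2 minus the mean of the other 6 lines (log2) for each gene in RefSeq order, red at 1 or more, blue at -1 or less and grey between, and the dashed line is the median of the window, from 1.71 on chromosome 7 to -1.40 on chromosome 3.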

How the data were processed

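Expression was profiled in 7 HL cell lines on 1 Affymetrix array each. The authors deposited log2 values for 54675 probe sets; per the labels and methods these were made by RMA background correction and quantile normalization with limma and affy (versions not given in the sources used here). According to the methods, ratios to the sample mean were also formed, but the deposited log2 values are levels, not ratios. Of the probe sets 41097 had 1 gene in the platform annotation, 1801 several and 11777 none. For 41043 the symbol was taken from RefSeq by gene identifier, whether or not it differed from the annotated one. Of several probe sets of a gene, the one with the highest average level was read. No test was possible with 1 array per line; the number of arrays limits the precision, and the calls are fixed differences of 1. All 7 value columns were used. The 41 gene lists, KM-H2 and the calls were chosen with earlier results of these data known. Genes named are the 25 with the largest gap in each direction, the members outside the range of the other lines by 1 and up to 4 of the largest differences in each list, all TLE and NKX2-2 network members, and genes of the chromosomal windows and runs; a few other list members are named to complete a group and were chosen after their values were seen. Y-linked genes, XIST and TSIX were left out of the named genes, the lists and the chromosomal windows and runs, but not of the counts over all genes read. Alternatives covered the probe set, scaling, background, filter, reference and lines left out. Python 3.11.15, pandas 2.3.3, numpy 2.4.6 and matplotlib 3.10.9 were used.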

Additional observations from a re-analysis of the deposited data

Results flagged for a closer look

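In 65 comparisons of list medians, array measures and members of the TLE and NKX2-2 network lists, KM-H2 was separated from the nearest line by more of the whole range than Dixon's limit for 7 values in 3 cases. That limit is set for an outlier at any of the 7 lines, whereas only KM-H2 was looked at, and the lists share genes. A number expected by chance was therefore not worked out, and the 3 are given as values and not as tests. These medians are of each gene's distance from its 7-line mean, over members above background in at least 1 line. The cancer-testis antigens had a median of 4.04 in KM-H2 and -1.12 to 0.07 in the other lines. Several of these members passed the filter through KM-H2 alone, so this separation is built in, and over all 32 members the median difference of KM-H2 from the other lines was 0.41. The B-cell genes had a median of 0.40 in KM-H2 and -0.41 to -0.07 in the others, and over all 34 members the median difference was 0.18. The immunoglobulin and plasma cell genes had a median of -0.83 in KM-H2 and -0.25 to 0.15 in the others, and over all 14 members the median difference was -0.34.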

How the results depend on the processing

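No paired analysis was possible because only 1 array was made of each line. Recomputing gave 3809 gene values, of which 3436 stayed within the technical spread of the reported one, 365 left it and 8 changed the sign of a difference of 1 or more. With smaller differences counted, 37 values of 21 genes had the other sign. HLA-DQA1 turned to -2.49 at the probe set with the largest variance. Without probe sets that read several transcripts (names ending in _x_at or _s_at), BLVRA turned to 0.36, GAS1 to -0.47, GDF15 to -0.60, ITGAM to -0.11, LDB2 to -0.058 and TNFRSF4 to -0.49, each then read from a probe set of lower mean. EPHB4 was at -0.066 after a second quantile normalization. Of 697 list medians 627 kept their sign and 692 moved by less than the spread. Genes below all other lines numbered 70 with all probe sets of a gene averaged, and 331 without L-1236 and U-HO1. With values under background raised to it, 958 genes were lower, the plasma cell median was -0.17 and that of the cancer-testis antigens 3.90. Without the filter these medians were -0.34 and 0.41. The median of the cholesterol, serine, tryptophan and metallothionein genes was 1.07 without those probe sets. A call at 2 left 184 genes above and 36 below all others, and 626 higher and 348 lower. Leaving out single lines gave 137 (without SUP-HD1) to 215 (without L-1236) genes below and 495 to 559 above. The other counts stayed within 1.5 times their value. Low levels on an array are bounded by background, so differences between lines that are both under it carry no order.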

Other observations

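Receptor tyrosine kinases were not covered above. Of 52 measured members 11 were higher in KM-H2 and 3 were lower, and none lay above or below all other lines by 1. PDGFRA, a receptor of mesenchymal growth factors, was at 9.59 in KM-H2, at 10.36 in U-HO1 and 10.61 in SUP-HD1, and at 2.67 to 6.29 in the other lines. Of the polycomb and DNA methylation genes 5 of 34 (14.7%) were higher and 1 (2.94%) was lower, against 9.43% and 8.21% of all genes read. TET3, which oxidises methylated cytosine, was at 9.16 in KM-H2 against 6.16 to 8.65, and DNMT3A, a methyltransferase, at 6.59 against 4.19 to 6.45. Among 11777 probe sets without an annotated gene, 179 lay above all other lines in KM-H2 and 6 below. Over all 54675 probe sets these counts were 1145 and 200. Of the 11777, 2861 were above the KM-H2 background and 1011 above background in all 6 other lines. Only these could be called above or below, so the 179 and 6 are not to be set against each other.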
